A study of Mus musculus with 20 samples.

Results

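Polyglutamine disease genes and partners of ataxin-1, 10 in all, were followed in knock-in and wild-type mouse brain: Atxn1, Atxn2, Atxn3, Atxn7, Atn1, Htt and Tbp, whose human counterparts carry the glutamine-coding repeats of polyglutamine diseases, Atxn10, and the ataxin-1 partners Cic and Rora. The members were all probe sets that the array annotation assigns to one of these 10 genes alone. Of 22626 probe sets other than array controls, 18 belonged to 9 of the 10 genes, out of 12393 genes with probe sets of their own. No probe set in the annotation used here names Atxn3, so ataxin-3, a deubiquitinating enzyme, is not analysed here. RNA was hybridised to 20 single-channel oligonucleotide arrays. For each genotype and region there were 2 arrays at 11 weeks and 3 at 4 weeks, which gave 8 groups: knock-in and wild-type cerebellum at 11 weeks, knock-in and wild-type cerebellum at 4 weeks, and the same 4 groups in forebrain. Which allele was knocked in, the strain and the sex are not given in the labels. Nothing in them says that each array came from its own mouse, and so a p-value here rests on the spread between arrays, which may be technical.

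The labels conflict in places. For 7 of the 10 forebrain arrays the source or the opening of the title names cerebellum, and for 1 of them, knock-in forebrain 4 weeks replicate 3, so does the description. The grouping follows the coded part of each title. The later age is 11 weeks in the descriptions and 12 weeks in the titles. Most region markers followed the grouping. Pcp2, a Purkinje cell gene, averaged 43340 to 52907 intensity units in the cerebellum groups and 210 to 477 in the forebrain groups. Bcl11b, a transcription factor of cortical and striatal neurons, averaged 17.9 to 29.0 in the cerebellum groups and 3899 to 5381 in the forebrain groups. By the tests described below, 6 of 6 tested Purkinje markers were higher in cerebellum in both genotypes. Their summed intensity was 24808 to 27114 on the knock-in forebrain arrays at 4 weeks, replicate 3 among them. On cerebellum arrays it was 228752 or more. Of 5 tested cortical and striatal markers, 4 were lower in cerebellum and 1 was higher, in both genotypes. Median intensity was 1064 to 1180 on knock-in arrays and 979 to 1072 on wild-type arrays. The ratio of 3' to 5' GAPDH probe sets, a sign of RNA quality, was 0.804 to 0.903 on knock-in arrays and 0.744 to 0.864 on wild-type arrays.

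Polyglutamine diseases arise when a repeated glutamine codon in a gene grows beyond a threshold length, which makes the protein misfold and gain new activities, mostly in neurons. Ataxin-1, the protein of the ataxia SCA1, works in a complex with the repressor capicua, the product of Cic, and also contacts the nuclear receptor encoded by Rora, which Purkinje cells of the cerebellum need for their growth. Several of the other proteins also act on transcription: ataxin-7 sits in the histone-modifying SAGA complex, Tbp encodes the TATA-binding protein, and atrophin-1, the product of Atn1, is a corepressor. Ataxin-10 belongs to the ataxias but not to the polyglutamine group, since its human disease comes from a repeat in an intron.

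A probe set was held to lie near background when it exceeded the 40th percentile of its array on fewer than 2 of the 20 arrays. That limit had a median of 681 intensity units. It was 682 to 775 on knock-in arrays and 606 to 680 on wild-type arrays. The only Atxn1 probe set lay near background on every array, at 35.9 to 110 intensity units, with a median rank at percentile 7.86 of its array. It read 47.7 and 67.1 in knock-in and 41.4 and 58.2 in wild-type cerebellum at 11 weeks, 69.5, 40.2 and 70.3 in knock-in and 65.2, 39.7 and 44.3 in wild-type cerebellum at 4 weeks. In forebrain it read 47.0 and 78.2 in knock-in and 45.8 and 58.3 in wild-type mice at 11 weeks, and 110, 90.4 and 71.5 in knock-in and 87.2, 35.9 and 47.8 in wild-type mice at 4 weeks. The 2 genotypes overlapped in each of the 4 pairs of groups. With no value above the limit, the level of Atxn1 RNA was not measured by this array and no test was run. The second Tbp probe set, 1426470_at, also lay near background on every array, at 48.4 to 393 intensity units. Of the other 16 probe sets, 15 exceeded the limit on every array.

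**Figure D1:**
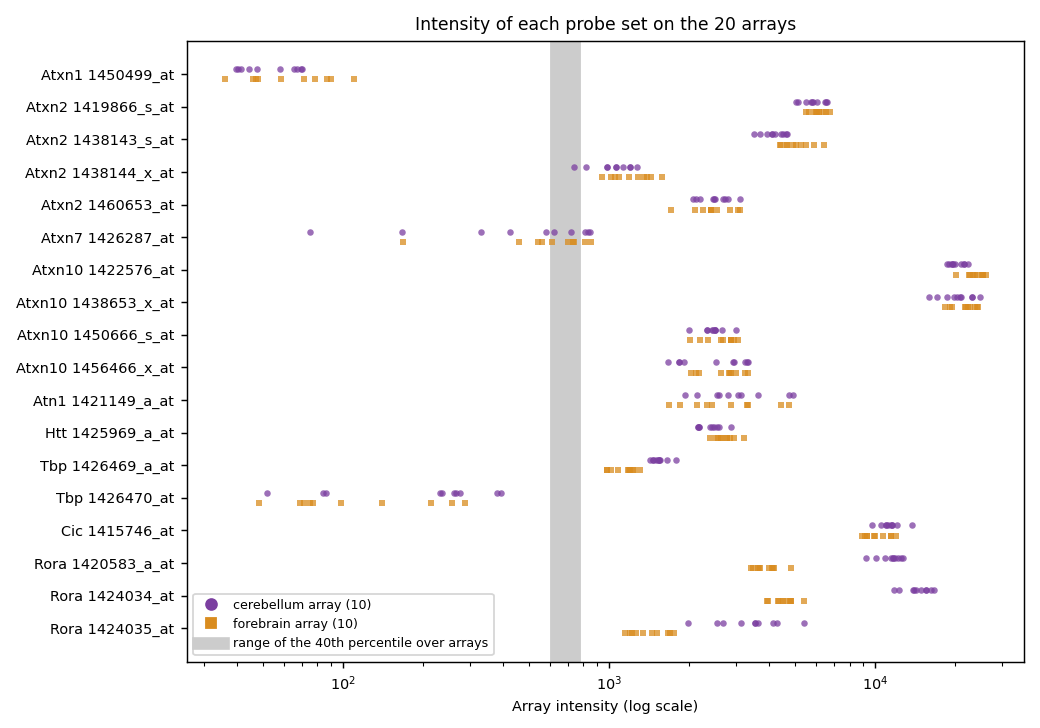
Intensity of the 18 probe sets on each of the 20 arrays, on a log axis, with cerebellum arrays as circles and forebrain arrays as squares. The grey band is the range over arrays of the 40th percentile, 606 to 775 units. Every point of Atxn1 and of the second Tbp probe set lies below the band, and Atxn7 lies on both sides of it. The circles and squares of the Rora probe sets do not overlap, and the share of all probe sets so separated was not counted.

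Atxn7 was the dim member among those tested, above the limit on 8 of 20 arrays. That limit was higher on every knock-in array than on every wild-type array, so this count depends on genotype as well as on the readings. Its readings were 425 and 166 in knock-in and 579 and 330 in wild-type cerebellum at 11 weeks, and 75.4, 717 and 622 in knock-in and 832, 851 and 809 in wild-type cerebellum at 4 weeks. In forebrain they were 557 and 168 in knock-in and 611 and 740 in wild-type mice at 11 weeks, and 699, 855 and 460 in knock-in and 814, 733 and 540 in wild-type mice at 4 weeks. Knock-in arrays lay below wild-type arrays without overlap in cerebellum at 4 weeks and in forebrain at 11 weeks, and the genotypes overlapped in the remaining pairs. Such a separation downward was found for 7.59% of all tested probe sets in the first of these comparisons and 21.1% in the second. The averaged difference over the 4 pairs was -0.78 ± 0.35 on the log2 scale (SE) and did not pass the test (adjusted p = 0.112). With an offset of 64 in place of 16 before taking logs it was -0.67, and with an offset of 1 it was -0.82, neither past the test. Under quantile normalization it was -0.95 and under cyclic loess -0.99, also not past the test.

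All tests were made on log2(intensity + 16), knock-in minus wild type unless another contrast is named, with limma over 15627 probe sets. Averaged over both regions and ages, 4 of the 16 tested member probe sets were higher in knock-in mice and 0 were lower, in 3 of the 8 tested genes: Atn1, Atxn10 and Atxn2. Of all tested probe sets, 15% were called higher and 8.65% lower in this comparison, against 25% and 0% of the members. The members' shares were not tested against these backgrounds. The median difference was -0.05 over the members and 0.03 over all probe sets. With quantile normalization the calls over all probe sets split into 1565 higher and 1589 lower, and with cyclic loess into 1383 and 1880, against 2350 and 1351 with the deposited scaling. The 4 member calls held under both of those scalings.

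**Figure D2:**
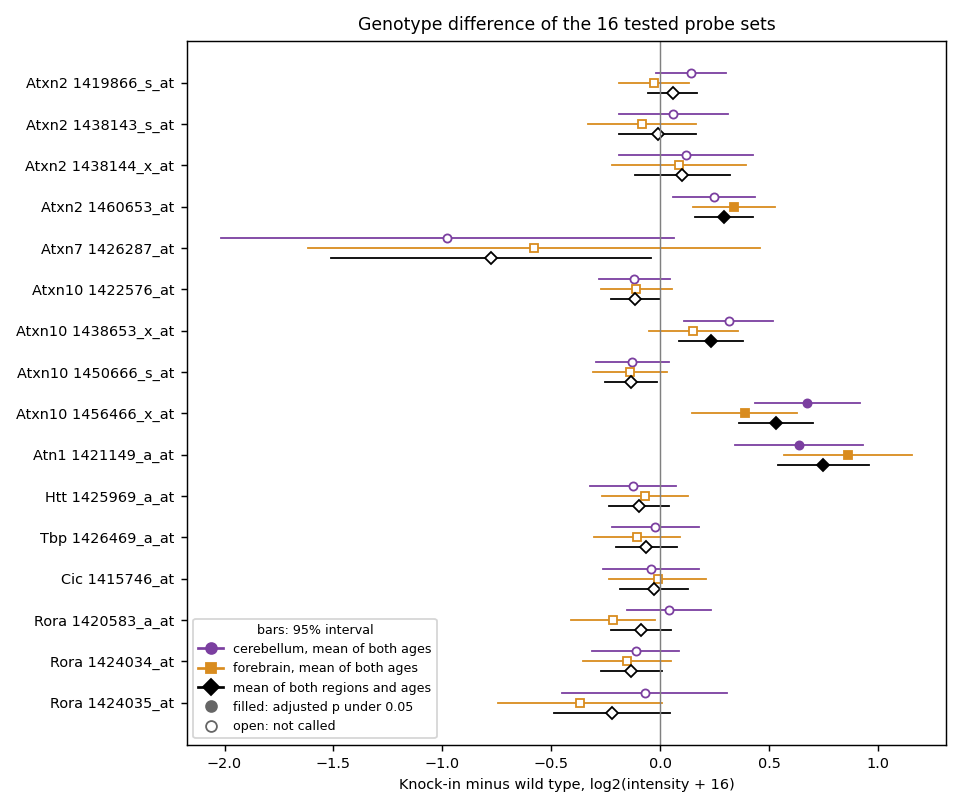
Knock-in minus wild type difference on the log2(intensity + 16) scale for the 16 tested probe sets, averaged over ages in cerebellum (circles) and forebrain (squares) and over both regions and ages (diamonds), with 95% intervals. Filled symbols passed an adjusted p of 0.05. The filled symbols belong to Atn1, Atxn10 and Atxn2, and all of them lie to the right of 0.

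Atn1, whose human repeat causes dentatorubral-pallidoluysian atrophy, had the largest rise among the members. Its single probe set read 4749 and 4887 in knock-in and 3049 and 2146 in wild-type cerebellum at 11 weeks, and 3614, 3121 and 2598 in knock-in and 1928, 2545 and 2807 in wild-type cerebellum at 4 weeks. The forebrain readings were 4759 and 4438 in knock-in and 2137 and 2331 in wild-type mice at 11 weeks, and 3336, 2871 and 3285 in knock-in and 1676, 2438 and 1847 in wild-type mice at 4 weeks. Every knock-in array lay above every wild-type array in 3 of the 4 pairs, and the genotypes overlapped only in cerebellum at 4 weeks. The same separation upward was found for 26.9% of all tested probe sets in each 11-week pair, 17.2% in forebrain at 4 weeks and 11.2% in cerebellum at 4 weeks. In forebrain at 11 weeks the difference was 1.04 ± 0.21 on the log2 scale (SE, adjusted p = 0.0375). In forebrain at 4 weeks it was 0.68 ± 0.17 (SE, adjusted p = 0.0302). Background rates in those 2 comparisons were 0.384% and 4.95% of all probe sets called higher.

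In cerebellum the Atn1 difference was 0.91 ± 0.21 at 11 weeks and 0.36 ± 0.17 at 4 weeks (SE), and neither passed alone (adjusted p = 0.0795 and 0.391). With limma, 0 members were called in cerebellum at 11 weeks, where 0.346% of all probe sets were called, and 0 at 4 weeks, where 0.0512% were. At an unadjusted p under 0.05 the counts were 5 members of 2306 probe sets at 11 weeks and 1 of 2072 at 4 weeks. Averaged over ages, Atn1 rose in both regions, by 0.63 ± 0.14 in cerebellum (SE, adjusted p = 0.0245) and by 0.86 ± 0.14 in forebrain (SE, adjusted p = 0.0021). Of all probe sets, 2.25% were called higher in cerebellum and 8.36% in forebrain. The difference in cerebellum minus that in forebrain was -0.22 (95% interval -0.64 to 0.19, adjusted p = 0.835) and did not pass.

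Over both regions and ages the Atn1 difference was 0.75 ± 0.10 (SE), or 1.68-fold, with an adjusted p of 0.000355. By group mean the order was knock-in cerebellum at 11 weeks (4818), knock-in forebrain at 11 weeks (4598), knock-in forebrain at 4 weeks (3164), knock-in cerebellum at 4 weeks (3111), and then the wild-type groups at 2598 to 1987. Of neighbours in that order, only the knock-in forebrain groups at 11 and 4 weeks had ranges that did not overlap. By p-value Atn1 stood at rank 55 of 15627 probe sets, and 130 probe sets rose by more. Within knock-in mice the 11-week arrays all lay above the 4-week arrays in both regions, by 0.64 ± 0.20 in cerebellum and 0.54 ± 0.20 in forebrain (SE). The share of all probe sets separated by age in this way was not counted. Neither age difference passed over all probe sets (adjusted p = 0.179 and 0.307), and neither did the change of the genotype difference with age (0.55, 95% interval -0.04 to 1.14, in cerebellum, and 0.35, -0.23 to 0.94, in forebrain). That change was called by limma in 0 members in either region, and in 0.0256% of all probe sets in cerebellum and 0% in forebrain. At an unadjusted p under 0.05 it held 1 member in each region, of 901 probe sets in cerebellum and 971 in forebrain.

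The Atn1 calls within one age did not hold whichever array was left out. The forebrain call at 11 weeks was lost when any of the 4 forebrain arrays of that age or either knock-in cerebellum array of that age was left out, with adjusted p up to 0.176. It was also lost without the filter on dim probe sets (adjusted p = 0.0761) and with only the compared groups in the fit (adjusted p = 0.192). The forebrain call at 4 weeks was lost without any of the 3 knock-in arrays, knock-in replicate 3 among them (0.65, adjusted p = 0.0687), or without wild-type replicate 1 or 3. Without the filter its adjusted p was 0.0527, and with only the compared groups 0.0793. The cerebellum call over ages was lost without knock-in 4 weeks replicate 1, either knock-in array at 11 weeks or wild-type 11 weeks replicate 2 (highest adjusted p = 0.104), and with only the compared groups (adjusted p = 0.0621). The calls over ages in forebrain and over all 4 pairs were kept whichever array was left out, at adjusted p up to 0.0135 and 0.00146.

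**Figure D3:**
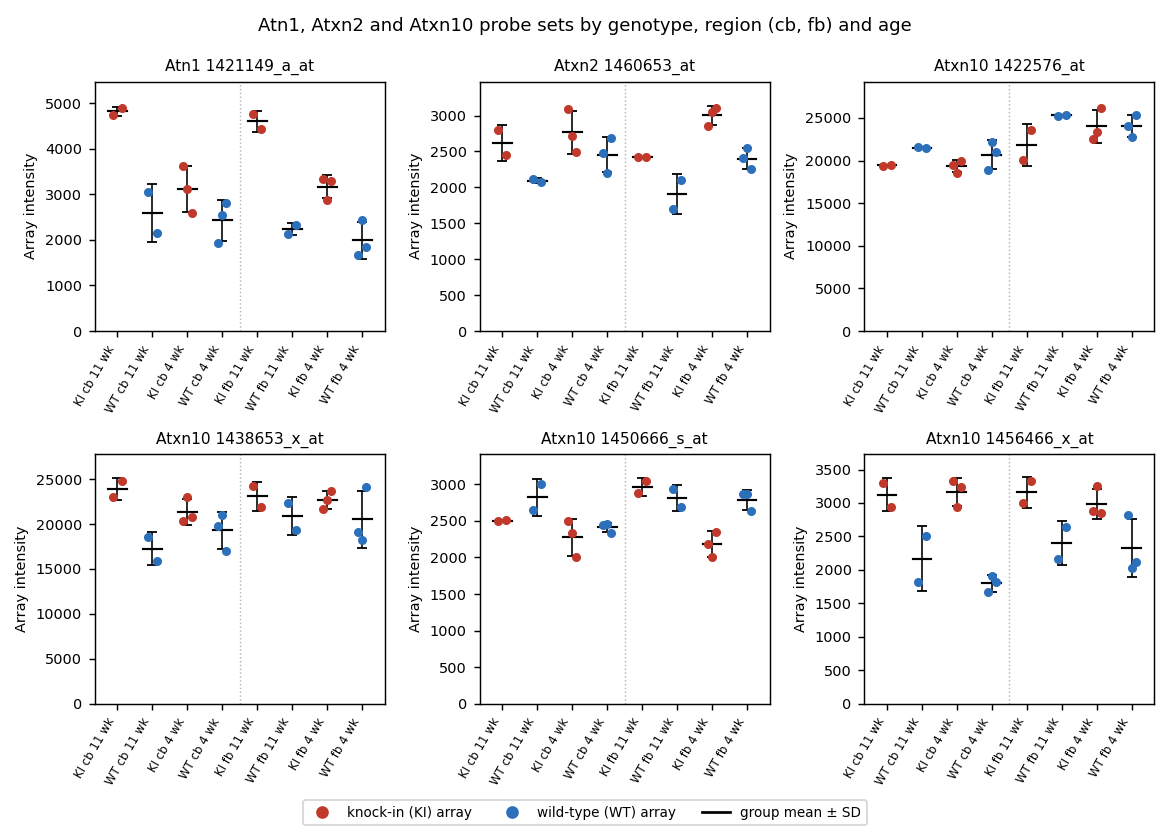
Array intensity of the Atn1 probe set, the called Atxn2 probe set and the 4 Atxn10 probe sets in the 8 groups, on axes that start at 0, with 1 point per array, the group mean as a line and the SD as bars. For Atn1, knock-in arrays at 11 weeks read 4438 to 4887 units, above every other array. For Atxn10 1456466_x_at, the knock-in points lie above the wild-type points in all 4 pairs of groups.

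Atxn10 encodes a cytoplasmic protein that supports neuron survival and outgrowth of neurites. Its 4 probe sets did not move together. The probe set 1456466_x_at read 3296 and 2945 in knock-in and 1823 and 2511 in wild-type cerebellum at 11 weeks, and 3330, 2932 and 3231 in knock-in and 1662, 1909 and 1825 in wild-type cerebellum at 4 weeks. In forebrain the readings were 2998 and 3323 in knock-in and 2167 and 2639 in wild-type mice at 11 weeks, and 2876, 3247 and 2846 in knock-in and 2819, 2029 and 2120 in wild-type mice at 4 weeks. Every knock-in array lay above every wild-type array in all 4 pairs, which was so for 1.54% of all tested probe sets. The rise was 0.53 ± 0.08 over all 4 pairs (SE, adjusted p = 0.000673), or 1.44-fold. It was 0.67 ± 0.11 in cerebellum (adjusted p = 0.00825) and 0.39 ± 0.11 in forebrain (adjusted p = 0.0361), SE in both, and the test between the regions did not pass (0.29, 95% interval -0.05 to 0.63).

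In cerebellum at 4 weeks alone that probe set differed by 0.81 ± 0.14 (SE) and ranked 12 of 15627 by p-value, with an adjusted p of 0.0542. That comparison had 8 calls over all probe sets. The forebrain call was lost under cyclic loess (adjusted p = 0.0558) and when any forebrain array was left out other than knock-in 4 weeks replicate 3, wild-type 4 weeks replicate 1 and wild-type 11 weeks replicate 2. Its adjusted p reached 0.152 without wild-type 11 weeks replicate 1, and was 0.0598 without the filter and 0.0739 with only the compared groups. The calls in cerebellum and over all 4 pairs were kept whichever array was left out.

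A second Atxn10 probe set, 1438653_x_at, read 15934 to 24808 over all arrays. It was higher by 0.23 ± 0.07 over all 4 pairs (SE, adjusted p = 0.0244), a call lost when knock-in cerebellum 11 weeks replicate 2, wild-type cerebellum 11 weeks replicate 2, knock-in forebrain 11 weeks replicate 1 or wild-type forebrain 11 weeks replicate 2 was left out (highest adjusted p = 0.0659). The remaining probe sets had differences of the opposite sign that did not pass. Probe set 1422576_at, at 18583 to 26132 units, differed by -0.11 ± 0.05 (SE, adjusted p = 0.131), and 1450666_s_at by -0.13 ± 0.06 (SE, adjusted p = 0.0948). The suffixes x and s mark probe sets whose probes also match other transcripts, so the source of these signals is uncertain for 3 of the 4 Atxn10 probe sets. The probe set without a suffix, 1422576_at, did not pass in any genotype comparison.

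In forebrain at 4 weeks, 1450666_s_at was lower in knock-in mice. It read 2185, 2005 and 2355 in knock-in and 2874, 2863 and 2632 in wild-type mice, with no overlap, which was so in this direction for 11.5% of all tested probe sets. It fell by 0.35 on the log2 scale (SE 0.10, adjusted p = 0.0449). At 11 weeks the same probe set read 2880 and 3048 in knock-in and 2943 and 2688 in wild-type forebrain, with overlap. This call was lost in 13 of the 20 fits that each left out 1 array, up to an adjusted p of 0.153. The arrays whose removal kept it were the wild-type arrays at 11 weeks, knock-in cerebellum 4 weeks replicates 1 and 3, and knock-in forebrain 4 weeks replicate 3, described as cerebellum (-0.41, adjusted p = 0.0464). It was lost without the filter (adjusted p = 0.0683) and with only the compared groups (adjusted p = 0.149). In that comparison 2.42% of all probe sets were called lower. Across the 20 arrays the Pearson correlations between Atxn10 probe sets ran from -0.22 to 0.45, given as a description over arrays that share regions and genotypes.

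Atxn2 encodes an RNA-binding protein that controls translation and the formation of stress granules. Its probe set 1460653_at read 2798 and 2446 in knock-in and 2120 and 2070 in wild-type cerebellum at 11 weeks, and 3093, 2720 and 2500 in knock-in and 2481, 2198 and 2689 in wild-type cerebellum at 4 weeks. For forebrain the readings were 2421 and 2420 in knock-in and 1705 and 2100 in wild-type mice at 11 weeks, and 2849, 3055 and 3102 in knock-in and 2408, 2548 and 2250 in wild-type mice at 4 weeks. Knock-in arrays lay above wild-type arrays in 3 of the 4 pairs, with overlap in cerebellum at 4 weeks. Upward separation was found for 26.9% of all tested probe sets in each 11-week pair and 17.2% in forebrain at 4 weeks. The rise was 0.29 ± 0.06 over all 4 pairs (SE, adjusted p = 0.00528) and was kept whichever array was left out. In forebrain over ages it was 0.34 ± 0.09 (SE, adjusted p = 0.0237), lost without either knock-in array at 11 weeks or wild-type 11 weeks replicate 1, and with only the compared groups (adjusted p = 0.0517). In cerebellum it was 0.25 ± 0.09 (SE, adjusted p = 0.126).

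The other 3 Atxn2 probe sets differed by -0.01 to 0.10 over all 4 pairs, with adjusted p of 0.476 to 0.927. Of these, 2 carry the s suffix and 1 the x suffix. Correlations between Atxn2 probe sets over the 20 arrays ran from -0.08 to 0.42. A rise over all 4 pairs was called in 1 of 4 Atxn2 probe sets and in 2 of 4 for Atxn10.

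Cell type markers were read beside these results. In forebrain, the summed intensity of the 5 of 8 cortical and striatal neuron markers on the array was 12653 to 17474 in knock-in and 22294 to 24625 in wild-type mice at 11 weeks, and 15626 to 17213 in knock-in and 17288 to 20499 in wild-type mice at 4 weeks. The sums did not overlap between genotypes at either age, and over all 4 pairs limma called 0 of those 5 markers in either direction, as it did over ages in forebrain. The sum of the 6 of 8 Purkinje cell markers on the array was 228752 to 265761 in knock-in and 274631 to 275453 in wild-type cerebellum at 11 weeks, and 256313 to 279126 in knock-in and 272740 to 284459 in wild-type cerebellum at 4 weeks, overlapping at 4 weeks alone. Over the 10 marker lists and 4 pairs, 16 of 40 sums did not overlap between genotypes, 4 with knock-in higher and 12 with knock-in lower. Among all tested probe sets, taken singly, genotypes did not overlap in either direction for 49.3% in cerebellum at 11 weeks and 18.8% at 4 weeks. In forebrain these shares were 47.9% at 11 weeks and 28.7% at 4 weeks. Microglia sums were 12997 to 14103 in knock-in and 11756 to 12182 in wild-type cerebellum at 4 weeks, 35322 to 40273 in knock-in and 31643 to 34744 in wild-type forebrain at 4 weeks, and 28006 to 31712 in knock-in and 32126 to 35188 in wild-type forebrain at 11 weeks. Granule neuron sums were 123415 to 129312 in knock-in and 132863 to 143627 in wild-type cerebellum at 4 weeks, and astrocyte sums 22547 to 23692 in knock-in and 25328 to 27689 in wild-type forebrain at 11 weeks. Choroid plexus sums lay lower in knock-in cerebellum at 4 weeks and higher at 11 weeks than in wild type. Blood sums at 11 weeks were 818 to 835 in knock-in and 1176 to 4570 in wild-type cerebellum. In forebrain at that age they were 499 to 741 in knock-in and 966 to 2603 in wild-type mice, and at 4 weeks they overlapped in both regions. Over all 4 pairs 1 of the 6 Purkinje markers was called higher and 2 lower. In cerebellum 0 of these 6 were called in either direction at 4 weeks, at 11 weeks or over ages, and in forebrain over ages 1 was called higher. Over all 4 pairs 1 of 5 astrocyte markers was called lower, as was the tested blood marker, at -1.46 on the log2 scale. The lowest reading of any listed marker was above 0. The part of these marker sums, and of the GAPDH ratios and array medians given above, in the member differences was not tested.

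Htt encodes huntingtin, a scaffold of vesicle transport, and Tbp a subunit of the general transcription factor TFIID. Neither passed in any genotype comparison. Htt read 2150 to 3208 over all arrays and differed by -0.10 over all 4 pairs (95% interval -0.24 to 0.04, adjusted p = 0.284). The bright Tbp probe set read 984 to 1781 and differed by -0.07 (95% interval -0.21 to 0.07, adjusted p = 0.499). The interval of Atn1 in the same comparison was 0.54 to 0.96.

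Cic encodes capicua, the repressor through which ataxin-1 acts on many of its target genes. It read 12035 and 9753 in knock-in and 10501 and 10982 in wild-type cerebellum at 11 weeks, and 10933, 11447 and 11534 in knock-in and 11147, 13781 and 11546 in wild-type cerebellum at 4 weeks. Its forebrain values were 9122 and 10644 in knock-in and 9924 and 9292 in wild-type mice at 11 weeks, and 8914, 10014 and 11999 in knock-in and 11420, 9343 and 11465 in wild-type mice at 4 weeks. The genotypes overlapped in all 4 pairs. The difference was -0.03 over all 4 pairs (95% interval -0.18 to 0.13, adjusted p = 0.814).

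Rora showed the largest regional difference of the members. Its 3 probe sets were higher in cerebellum than in forebrain in both genotypes, and no cerebellum array overlapped a forebrain array in any of them. Probe set 1424034_at averaged 14483 ± 1591 units on cerebellum arrays and 4544 ± 454 units on forebrain arrays (SD, n = 10 each). Probe set 1420583_a_at averaged 11411 ± 1085 on cerebellum arrays and 3906 ± 425 on forebrain arrays, and 1424035_at averaged 3482 ± 980 on cerebellum arrays and 1423 ± 226 on forebrain arrays (SD, n = 10 each). In knock-in mice the cerebellum minus forebrain difference was 1.68 ± 0.09 in 1424034_at, 1.67 ± 0.09 in 1420583_a_at and 1.35 ± 0.18 in 1424035_at on the log2 scale (SE), with adjusted p from 5.15e-10 to 1.24e-05. In wild-type mice it was 1.64, 1.41 and 1.06 in the same probe sets, with adjusted p from 7.64e-10 to 0.000133. These tissues are mixtures of cells, and fewer cells of a type cannot be told apart from less RNA per cell.

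**Figure D4:**
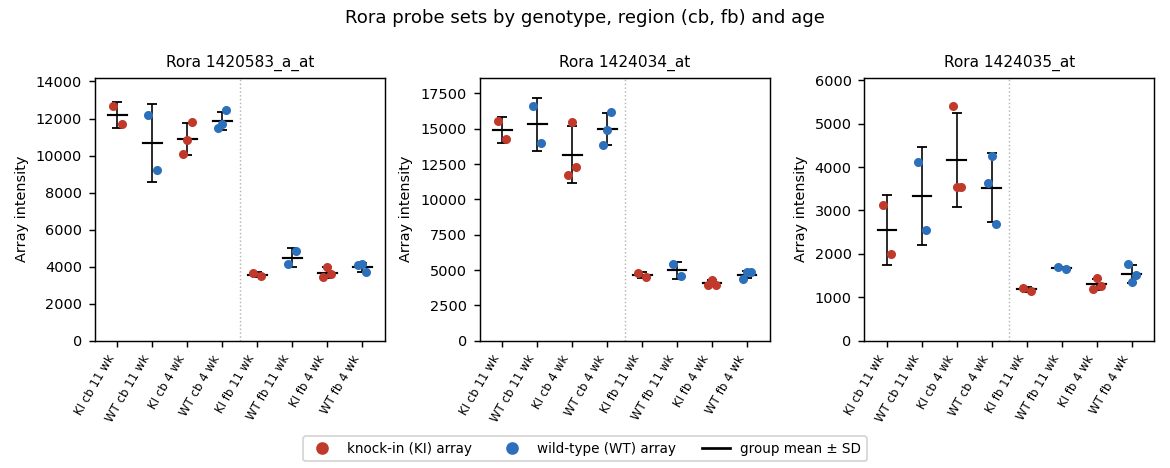
Array intensity of the 3 Rora probe sets in the 8 groups, on axes that start at 0, with 1 point per array, the group mean as a line and the SD as bars. Cerebellum arrays lie above forebrain arrays in each panel, a separation whose share over all probe sets was not counted. The ranges of knock-in and wild-type arrays of one region overlap.

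Between genotypes, Rora did not pass in any comparison. In cerebellum at 11 weeks 1424034_at read 15571 and 14275 in knock-in and 16605 and 13999 in wild-type mice. In cerebellum at 4 weeks it read 11732, 15463 and 12266 in knock-in and 13865, 14898 and 16161 in wild-type mice. In forebrain the values were 4778 and 4511 in knock-in and 5419 and 4563 in wild-type mice at 11 weeks, and 3939, 4293 and 3913 in knock-in and 4361, 4826 and 4842 in wild-type mice at 4 weeks. For this probe set the ranges were apart only in forebrain at 4 weeks, with knock-in below wild type, which was so for 11.5% of all probe sets. In forebrain at 11 weeks the other Rora probe sets were apart, again with knock-in lower. There 1420583_a_at read 3653 and 3481 in knock-in and 4136 and 4835 in wild-type mice, and 1424035_at read 1218 and 1144 in knock-in and 1698 and 1657 in wild-type mice. Downward separation in that comparison was found for 21.1% of all probe sets. Over all 4 pairs the log2 differences of 1420583_a_at, 1424034_at and 1424035_at were -0.09, -0.13 and -0.22, with adjusted p of 0.157 to 0.331. In forebrain over ages they were -0.22, -0.15 and -0.37, with adjusted p of 0.119 to 0.292.

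The regional differences of the other members were smaller. In knock-in mice 4 of 16 member probe sets were higher in cerebellum and 1 was lower, where 24.5% of all probe sets were called higher and 21.2% lower. For wild-type mice the counts were 4 and 2, with backgrounds of 26.6% and 21.3%. Beside Rora, the bright Tbp probe set was higher in cerebellum, at 1544 ± 104 units on cerebellum arrays and 1140 ± 116 on forebrain arrays (SD, n = 10 each). Its difference was 0.48 ± 0.09 in knock-in mice (SE, adjusted p = 0.000498) and 0.40 ± 0.09 in wild-type mice (SE, adjusted p = 0.00216). The Rora and Tbp calls were kept whichever array was left out.

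The probe sets called lower in cerebellum were those of Atxn10 and Atxn2. Atxn10 1422576_at fell by 0.24 on the log2 scale in knock-in mice (adjusted p = 0.0183) and by 0.23 in wild-type mice (adjusted p = 0.0215). Both calls were lost under quantile normalization (adjusted p = 0.139 and 0.165) and under cyclic loess (0.159 and 0.143). The knock-in call was also lost without knock-in forebrain 11 weeks replicate 2, and the wild-type call without either wild-type cerebellum array at 11 weeks, either wild-type forebrain array at 11 weeks or wild-type cerebellum 4 weeks replicate 1. Atxn2 1438143_s_at fell by 0.36 in wild-type cerebellum (adjusted p = 0.0188), lost without wild-type cerebellum 11 weeks replicate 2 or wild-type forebrain 11 weeks replicate 1. Htt differed by -0.21 in knock-in mice (adjusted p = 0.0714) and -0.16 in wild-type mice (adjusted p = 0.172). It passed in knock-in mice under both other scalings (adjusted p = 0.0201 and 0.0167) and in wild-type mice under cyclic loess (adjusted p = 0.0378). Atxn10 1456466_x_at, at -0.26 in wild-type mice (adjusted p = 0.0748), also passed there under quantile normalization (-0.31, adjusted p = 0.0324) and cyclic loess (-0.34, adjusted p = 0.0232).

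Between 11 weeks and 4 weeks within a genotype and region, 0 members passed, where limma called 0.557% of all probe sets in knock-in cerebellum, 0.198% in wild-type cerebellum, 0.064% in knock-in forebrain and 0.0064% in wild-type forebrain. At an unadjusted p under 0.05 these comparisons held 2, 1, 3 and 1 of the 16 member probe sets, and 1990, 1455, 1792 and 961 of all 15627. Besides Atn1, the lowest unadjusted values were those of Atxn10 1450666_s_at in knock-in forebrain, 0.44 ± 0.11 (SE, adjusted p = 0.153), and Rora 1424035_at in knock-in cerebellum, -0.71 ± 0.25 (SE, adjusted p = 0.248). The genotype difference differed between regions in 0 members by limma, with 0 at an unadjusted p under 0.05, where 0.282% of all probe sets were called.

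The probe sets most like each member over the 20 arrays were ranked by Pearson correlation of log2 values, as a description over arrays that share region, genotype and scaling. For Atn1 these were Sf3a2 (0.91), a splicing factor subunit, and Ccnk (0.87), a cyclin that acts with transcription kinases. After the mean of each region was taken off they were Ccnk (0.93) and Nipsnap2 (0.92). For Rora they were Kat2b (0.99), an acetyltransferase that is also a SAGA subunit, and Gdf10 (0.99), a gene of Bergmann glia, while after taking off region means no correlation exceeded 0.86. For Tbp they were Pmp22 (0.94) and Fgf9 (0.93).

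Proteins that work with the members were read over the same average of the 4 pairs. Of 27 probe sets for 11 ataxin-1 partners and regulators, 3 were higher and 3 lower, with a median of 0.05 against 0.03 over all probe sets. Of all probe sets 15% were called higher and 8.65% lower in this comparison, the background for each list that follows. Ubqln4, a ubiquitin-like protein that binds ataxin-1, was higher by 0.36 ± 0.07 in 1 of its 2 probe sets (SE, adjusted p = 0.00375), while the other differed by -0.02. Sp1, a transcription factor, fell by 0.36 in 1 of 2 probe sets (adjusted p = 0.00317), Rbm17, a splicing factor that binds ataxin-1, by 0.32 (adjusted p = 0.00629), and Anp32a, a leucine-rich nuclear protein, by 0.22 in 1 of 3 (adjusted p = 0.00836). Hdac3, a histone deacetylase, and Ywhae, a 14-3-3 protein, were higher by 0.26 and 0.14, and were named after their values were seen. The Ywhae call was in 1 of 4 probe sets and was lost in 15 of the 20 fits that each left out 1 array.

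Around ataxin-7, 3 of 21 probe sets for 13 SAGA genes were higher and 2 lower, with a median of 0.04, beside the background of 15% higher and 8.65% lower. Kat2a, the acetyltransferase of the complex, read 1745 to 2028 in knock-in and 895 to 1289 in wild-type cerebellum at 11 weeks, and 1977 to 2170 in knock-in and 848 to 1199 in wild-type cerebellum at 4 weeks. Readings in forebrain were 1920 to 2127 in knock-in and 1007 to 2025 in wild-type mice at 11 weeks, and 1983 to 2709 in knock-in and 1184 to 1359 in wild-type mice at 4 weeks. The genotypes overlapped in forebrain at 11 weeks alone, and upward separation was found for 26.9% of all probe sets in cerebellum at 11 weeks, 11.2% in cerebellum at 4 weeks and 17.2% in forebrain at 4 weeks. The rise was 0.79 ± 0.12 (SE, adjusted p = 0.000636), in 1 of 3 Kat2a probe sets, as the others differed by -0.08 and -0.09 (adjusted p = 0.38 and 0.258). Usp22, the deubiquitinase of the complex, was higher by 0.30 (adjusted p = 0.015) and Trrap, its scaffold, fell by 0.29 (adjusted p = 0.00806). Eny2, a small subunit, was called in both directions, at 0.38 and -0.21 in 2 of its 4 probe sets. Of 11 probe sets for 8 TFIID subunits around Tbp, 1 passed, with a median of 0.00. It was 1 of 2 Taf10 probe sets, higher by 0.36 (adjusted p = 0.0474).

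Of 16 probe sets for 10 huntingtin partners, 2 were higher and 0 lower, with a median of 0.06, beside 15% higher and 8.65% lower over all probe sets. These were Trip10, an adaptor of membrane and actin, by 0.46 ± 0.09 (SE, adjusted p = 0.00305) and Prpf40b, a splicing protein, by 0.29 (adjusted p = 0.0354). Of 14 probe sets for 5 partners of ataxin-2 and ataxin-10, 1 was higher and 4 lower, with a median of -0.13, beside the same background. All 3 probe sets of Ddx6, an RNA helicase that binds ataxin-2, were lower, at -0.42, -0.43 and -0.53 (adjusted p = 0.0116, 0.00548 and 0.00384). Its probe set 1439122_at read 2775 to 2893 in knock-in and 3840 to 4042 in wild-type cerebellum at 11 weeks, and 1909 to 2401 in knock-in and 3701 to 4935 in wild-type forebrain at 11 weeks, without overlap in either region. Separation downward was found for 22.4% of all tested probe sets in cerebellum and 21.1% in forebrain at this age. At 4 weeks it read 2764 to 3435 in knock-in and 2903 to 5430 in wild-type cerebellum, and 2379 to 3380 in knock-in and 3373 to 3814 in wild-type forebrain, with overlap in both. Tardbp, which encodes the RNA-binding protein TDP-43, was called in both directions, at 0.48 and -0.26 in 2 of 4 probe sets.

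Of 8 probe sets for 4 ataxin-3 partners, 1 was higher and 1 lower, with a median of -0.04, beside 15% higher and 8.65% lower over all probe sets. Rad23b, a shuttle to the proteasome, was higher by 0.24 in 1 of 2 probe sets (adjusted p = 0.0252), and Stub1, the ubiquitin ligase CHIP, fell by 0.40 in 1 of 2 (adjusted p = 0.00185). Of 16 probe sets for 8 atrophin-1 partners, 1 was higher and 3 lower, with a median of -0.04, beside the same background. These were the ubiquitin ligases Itch, higher by 0.25 (adjusted p = 0.0268), and Wwp1, at -0.31 and -0.25 in 2 of 3 probe sets, and Baiap2, an actin adaptor, at -0.19 in 1 of 4. Of 7 probe sets for 4 Rora targets of Purkinje cells, 1 was higher and 2 lower, with a median of -0.07, again beside that background. Pcp4, a calmodulin regulator, fell by 0.44 (adjusted p = 0.001), Calb1, a calcium buffer, fell by 0.15 in 1 of 2 (adjusted p = 0.0391), and Slc1a6, a glutamate transporter, was higher by 0.22 (adjusted p = 0.0354). The average of the 4 pairs takes in forebrain as well as cerebellum, so these calls are not calls in cerebellum. Calb1 and Slc1a6 also belong to the Purkinje marker list, of which 0 of 6 tested were called in cerebellum at 4 weeks, at 11 weeks or over ages. The sums of that list are given above, and their part in this result was not tested.

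Cacna1a, the calcium channel gene of another polyglutamine ataxia, was higher by 0.43 in 1 of 2 probe sets (adjusted p = 0.039), and Atxn7l1, a paralog of Atxn7, by 0.27 in 1 of 2 (adjusted p = 0.0423), the only call among 10 probe sets for 6 paralogs. Of these 30 partner and paralog calls, 18 held under every alternative setting other than the use of 1 probe set per gene, 8 were lost under quantile normalization and 6 under cyclic loess, and 0 changed direction. The calls lost under quantile normalization were those of Calb1, Slc1a6, Prpf40b, Taf10, Atxn7l1 and Cacna1a, the higher one of Eny2 and the lower one of Tardbp. The calls of Kat2a, Ddx6, Trip10, Stub1, Sp1, Ubqln4, Rbm17, Anp32a, Hdac3, Trrap, Usp22 and Pcp4 were among the 15 kept whichever array was left out.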

How the data were processed

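The deposited values are single-channel array intensities on a linear scale, with a file for each array. Before deposit they had been scaled to a common level, since the 2% trimmed mean was 2501 on every array. The sources used here name no program or background step. The intensities per probe set were taken as deposited, 64 array controls were left out, and log2(intensity + 16) was computed. Kept were the 15627 of 22626 probe sets above the 40th percentile of their array on at least 2 arrays. limma 3.58.1 in R 4.3.3 (tables read by data.table, release 1.17.8) fitted 1 mean per group over all 20 arrays, with 12 residual and 3.45 prior degrees of freedom. The 16 comparisons were contrasts of group means, tested on both sides and adjusted by Benjamini-Hochberg over the kept probe sets, and a call is an adjusted p under 0.05.

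Probe sets were named through GEO's platform annotation: 20380 have 1 symbol, 691 several and 1555 none, and 20351 matched RefSeq by Entrez identifier with 0 symbols changed. Every member probe set is named, the called ones of each partner list with the lowest p, and for likeness the 2 probe sets with the highest correlation. Members and lists were chosen with earlier results of these data known. Alternatives were the offset, the filter, quantile normalization, cyclic loess, 1 probe set per gene, only the compared groups, an intensity trend, the replicate number as a block, and each array left out. The number of arrays limits the precision. Other per-sample columns numbered 0.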

Additional observations from a re-analysis of the deposited data

How the results depend on the processing

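Among the alternatives tried, none reversed the direction of a called member or partner probe set, but the balance of calls over all probe sets turned in some, as given below. Without a filter on dim probe sets, 0 members were called in forebrain at 4 weeks and 0 at 11 weeks, and with the filter at the 60th percentile 1 was called in cerebellum at 4 weeks. With 1 probe set per gene, which leaves fewer probe sets to call, the counts were 1 in forebrain at 4 weeks, 1 each over ages in cerebellum and in forebrain, 1 over all 4 pairs, and 3 between regions in each genotype. With only the compared groups in the fit, hence fewer arrays, they were 0 in forebrain at 4 and at 11 weeks and 1 over ages in each region. An intensity trend gave 1 in cerebellum at 4 weeks and 1 at 11 weeks. With the replicate block they were 1 in forebrain at 4 weeks and 0 at 11 weeks, where the Atn1 call was lost (adjusted p = 0.0647), as was that of Atxn10 1450666_s_at at 4 weeks (adjusted p = 0.06). The cause was not tested for the filter, the trend or the block. The labels do not say that the replicate numbers pair the arrays. Over 3 kinds of pair, 3 of 10, 1 of 10 and 0 of 10 same-numbered pairs correlated above 0.1, with a highest correlation of 0.181. Among pairs with other numbers these were 0 of 16, 1 of 16 and 0 of 16. Deviations of same-numbered arrays had median correlations of 0.0812, 0.0725 and -0.00015 over these 3 kinds of pair, against -0.043, -0.0622 and -0.0123 for other numbers. In groups of 2 arrays the deviations mirror each other, so the 11-week correlations of same and other numbers are opposite by construction. At 4 weeks 18 of 36 best matches had the same number, where 1 in 3 would by chance. These values are a description and not the design, and whether the numbers pair the arrays was not tested. Leaving out each array in turn gave 0 to 1 in cerebellum at 4 weeks, 0 to 2 and 0 to 1 in forebrain at 4 and 11 weeks, 1 to 2 over ages in cerebellum, 1 to 3 over ages in forebrain, and 3 to 4 over all 4 pairs. Over all 4 pairs, 2350 higher and 1351 lower calls became 1565 and 1589 under quantile normalization, 1383 and 1880 under cyclic loess, and 1536 and 819 with 1 probe set per gene. Over all probe sets, forebrain at 4 weeks had 773 higher and 378 lower calls, 460 and 468 under quantile normalization, 380 and 505 under cyclic loess, and 149 and 74 with only the compared groups. Forebrain at 11 weeks had 60 and 75, against 17 and 34 without a filter, 33 and 47 with the replicate block and 0 with only the compared groups. Over ages the calls in cerebellum were 352 and 172, against 194 and 166 under quantile normalization and 202 and 236 under cyclic loess, and in forebrain 1307 and 801, against 824 and 900 and 697 and 1076. Without a filter the cerebellum calls over ages were 214 and 93, and with only the compared groups the forebrain calls over ages were 798 and 503. Cerebellum at 4 weeks had 7 and 1, against 1 and 2 under either scaling, 10 and 3 with 1 probe set per gene and 0 with only the compared groups. Cerebellum at 11 weeks had 34 and 20, against 16 and 10 without a filter, 44 and 42 at the 60th percentile, 60 and 59 with the trend and 0 with only the compared groups. The regional difference of the genotype effect had 31 and 13, against 16 and 6 without a filter, 44 and 23 at the 60th percentile and 16 and 10 with the replicate block. With 2 or 3 arrays a group, and most Atxn7 and all Atxn1 readings below the limit on dim probe sets, small changes of these genes were not measurable here.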
